A study of Mus musculus with 5 samples.

Results

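The genes described here are 4 keratins of simple epithelia (Krt7, Krt8, Krt18 and Krt19) and 6 transcription factors of the trophectoderm (Gata2, Gata3, Cdx2, Eomes, Tfap2c and Elf5). They were chosen by name, with earlier results of these data known, including the rises of Krt8 and Gata3. All 10 were measured, each by 1 probe set that carries its symbol alone, among 19938 genes with a symbol of their own. Expression was measured on Affymetrix whole-transcript arrays, 1 per culture, in 2 Dicer-deficient and 3 wild-type cultures of mouse embryonic stem (ES) cells, titled KO Asynchronous and WT Asynchronous. Dicer is the ribonuclease that releases mature microRNAs from their precursors. All 5 cultures were unsynchronised and grew without feeder cells in equal parts of serum medium with LIF and of N2B27 medium with 2i, a pair of kinase inhibitors. The labels name no cell line, clone, sex or way in which Dicer was lost, so the loss of Dicer and any other difference in the origin of these cells cannot be told apart. Cells collected in early G1 and a further Dicer-deficient culture that the design text counts were not analysed here. That text calls the cultures biological replicates, and p-values measure only the spread between them.

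The trophectoderm is the outer epithelium of the blastocyst and founds the placenta, while ES cells derive from the inner cell mass. Cdx2 and Gata3 start the trophectoderm programme under TEAD4 and YAP, and Eomes, Elf5 and Tfap2c sustain trophoblast stem cells. Keratin filaments are built from pairs of a type I and a type II chain. KRT8 (type II) and KRT18 (type I) form the founding pair of simple epithelia and are among the keratins made by the trophectoderm, with KRT7 (type II) and KRT19 (type I) joining them in glandular and trophoblast epithelia. The comparison asks whether these genes differ in transcript level between ES cells with and without Dicer.

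The label of each group was checked with Dicer1, whose log2 signal was 7.20 and 6.84 in the Dicer-deficient arrays, against 8.84, 8.82 and 8.85 in the wild-type arrays (log2 change -1.82, SE 0.112, limma adjusted p = 0.000129). Both Dicer-deficient arrays lay below every wild-type array, although no label says which exons were lost or whether the probe set covers them. The ES cell label was checked with Pou5f1, Nanog and Sox2, which had mean log2 signals of 11.99, 11.35 and 10.50 in Dicer-deficient cells and 11.82, 11.54 and 10.24 in wild-type cells. These 3 pluripotency genes lay at or above the 96th percentile of all probe sets, and none passed the test (adjusted p of 0.404, 0.446 and 0.279). Array medians lay between 5.39 and 5.45 on the log2 scale. Over the 10 genes wild-type array 3 stood somewhat apart: it gave the highest wild-type signal for 6 of them and a median deviation from the wild-type mean of 0.10, against -0.07 in wild-type array 1 and -0.02 in wild-type array 2. Over all genes these medians were 0.01, -0.01 and 0.00.

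Of the 10 genes, 4 rose in Dicer-deficient cells and 0 fell in limma at an adjusted p below 0.05: Krt8, Gata3, Krt19 and Krt18. Over all genes tested 8.48% rose and 8.6% fell at the same adjusted threshold. At an unadjusted p below 0.05 the counts among the 10 were 4 and 1, and the share over all genes was not analysed here. Krt8 and Gata3 also changed at least 2-fold, as did 1.54% of all genes in that direction. The rises of Krt8 and Gata3 were known when the 10 were chosen, so these counts are no independent result. Both Dicer-deficient values lay above all wild-type values for those 4 genes (20% of all genes) and below them for 1, Eomes (19.9% of all genes). The median log2 change was 0.06 over the 10 genes and 0.01 over all genes, and the other 6 changes lay between -0.49 and 0.06. The median of the 10 was 0.11 with Dicer-deficient array 1 left out, 0.15 with Dicer-deficient array 2, 0.04 with wild-type array 1 and 0.10 with wild-type array 3 left out, and 0.26 with dim genes removed, among them Cdx2 and Elf5. Without Dicer-deficient array 1, Dicer-deficient array 2, wild-type array 1 or wild-type array 2, the count was 2 of 10 each time, namely Krt8 and Gata3. Calls over all genes also became fewer in every leave-out, from 3404 to 2178 without wild-type array 1 and to 1739 without wild-type array 2. Lost calls and lower counts in leave-outs, here and below, are to be read beside that. In bulk RNA a change in the share of cells that make a transcript and a change in its level per cell cannot be told apart.

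**Figure D1:**
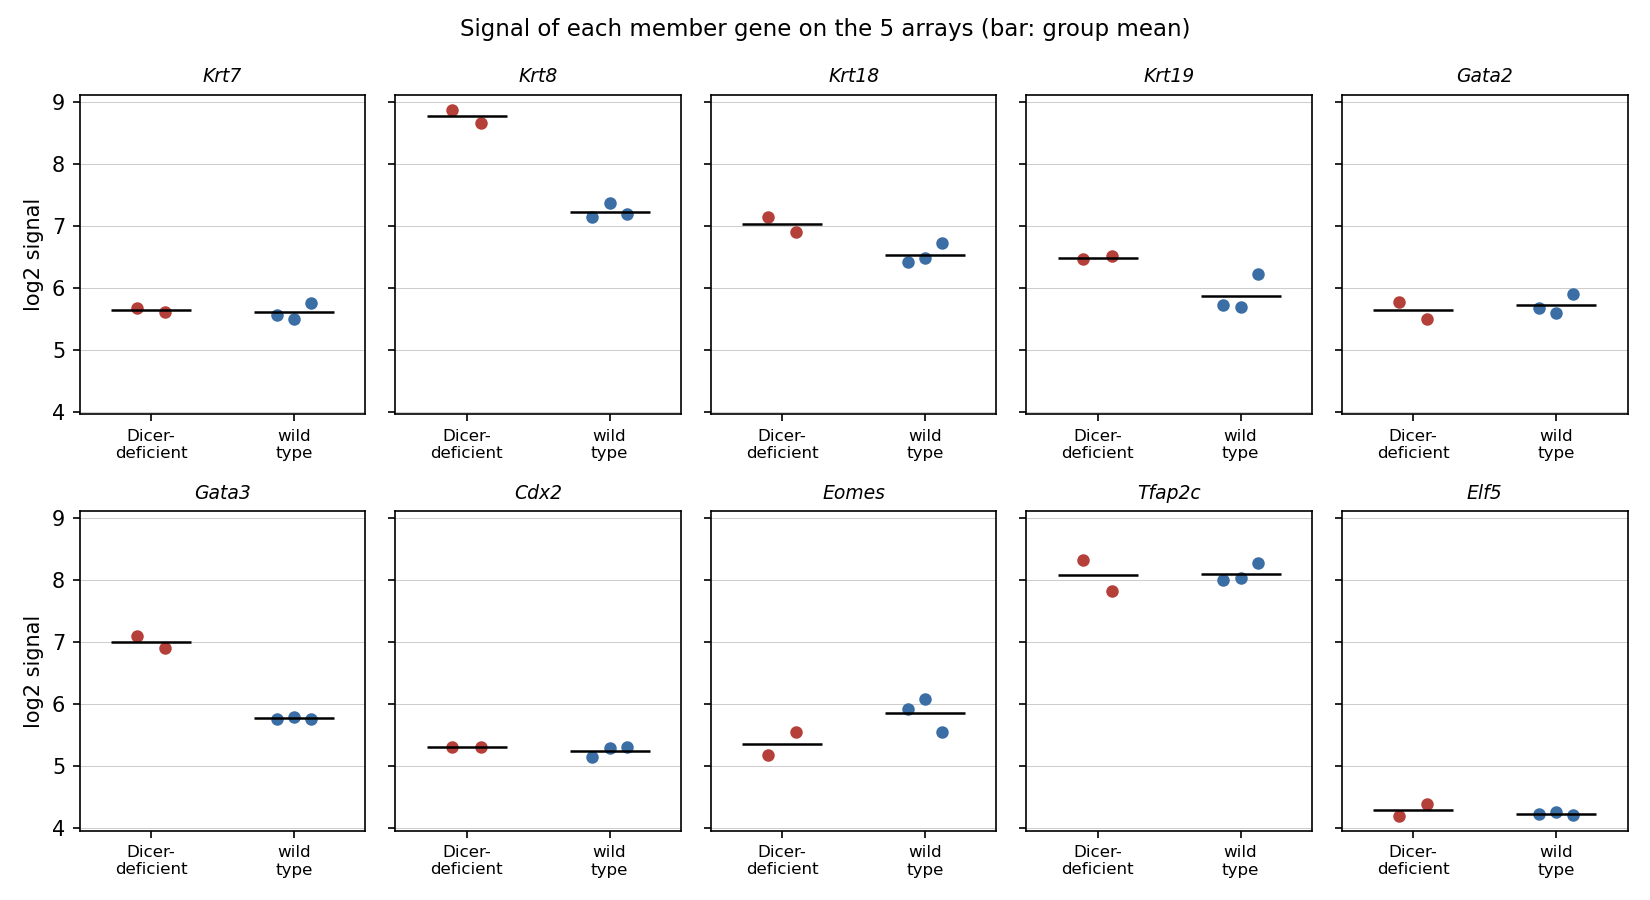
The log2 signal of each of the 10 genes (vertical axis, shared by all panels) on the 2 Dicer-deficient arrays (red points) and the 3 wild-type arrays (blue points), with a black bar at each group's mean. Krt8 and Gata3 are separated by more than 1 log2 unit between the groups, whereas Krt7, Gata2, Cdx2, Tfap2c and Elf5 overlap.

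Krt8 had the largest change of the 10 genes and ranked 81st among the rises of all 19938 genes. Its log2 signal was 8.88 and 8.66 in the Dicer-deficient arrays, against 7.14, 7.37 and 7.19 in the wild-type arrays. The lower Dicer-deficient array stood 1 log2 unit or more above every wild-type array. The mean was 8.77 ± 0.156 (SD, n = 2) in Dicer-deficient cells and 7.23 ± 0.121 (SD, n = 3) in wild-type cells, a 2.90-fold higher level (log2 change 1.54, SE 0.106, 95% interval 1.29 to 1.78, adjusted p = 0.000175). The rise passed the test with each array left out in turn, with a log2 change from 1.43 to 1.65 and an adjusted p from 0.00419 to 0.0214.

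Krt18, whose chain pairs with that of Krt8, rose less. Its log2 signal was 7.15 and 6.91 in the Dicer-deficient arrays, against 6.42, 6.48 and 6.72 in the wild-type arrays. The groups did not overlap, but wild-type array 3 came close to Dicer-deficient array 2. The level was 1.40-fold higher (log2 change 0.49, SE 0.118, 95% interval 0.21 to 0.77, adjusted p = 0.028), and this interval lies wholly below that of Krt8. The call was lost without either Dicer-deficient array or wild-type array 1 or 2 (adjusted p from 0.105 to 0.258, log2 change from 0.37 to 0.61).

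Krt19, the shortest type I keratin, had log2 signals of 6.47 and 6.51 in the Dicer-deficient arrays, against 5.73, 5.69 and 6.22 in the wild-type arrays. The Dicer-deficient values lay close together, and wild-type array 3 lay well above wild-type arrays 1 and 2. The level was 1.53-fold higher (log2 change 0.61, SE 0.157, 95% interval 0.24 to 0.98, adjusted p = 0.0353). Without wild-type array 3 the log2 change was 0.78 (adjusted p = 0.00508), and the call was lost without any one of the other 4 arrays (adjusted p from 0.144 to 0.276).

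Krt7, a type II keratin of glandular epithelia and trophoblast, did not pass the test. Its log2 signal was 5.68 and 5.62 in the Dicer-deficient arrays, against 5.57, 5.51 and 5.76 in the wild-type arrays. Both Dicer-deficient values lay inside the wild-type range, and the change was 0.04 (95% interval -0.19 to 0.26, adjusted p = 0.875). The interval reaches neither the change of Krt8 nor those of Krt18 and Krt19, but it covers only the spread between arrays. The mean signal of Krt7 lay at the 53.7th percentile of all probe sets, and detection above background was not analysed here.

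**Figure D2:**
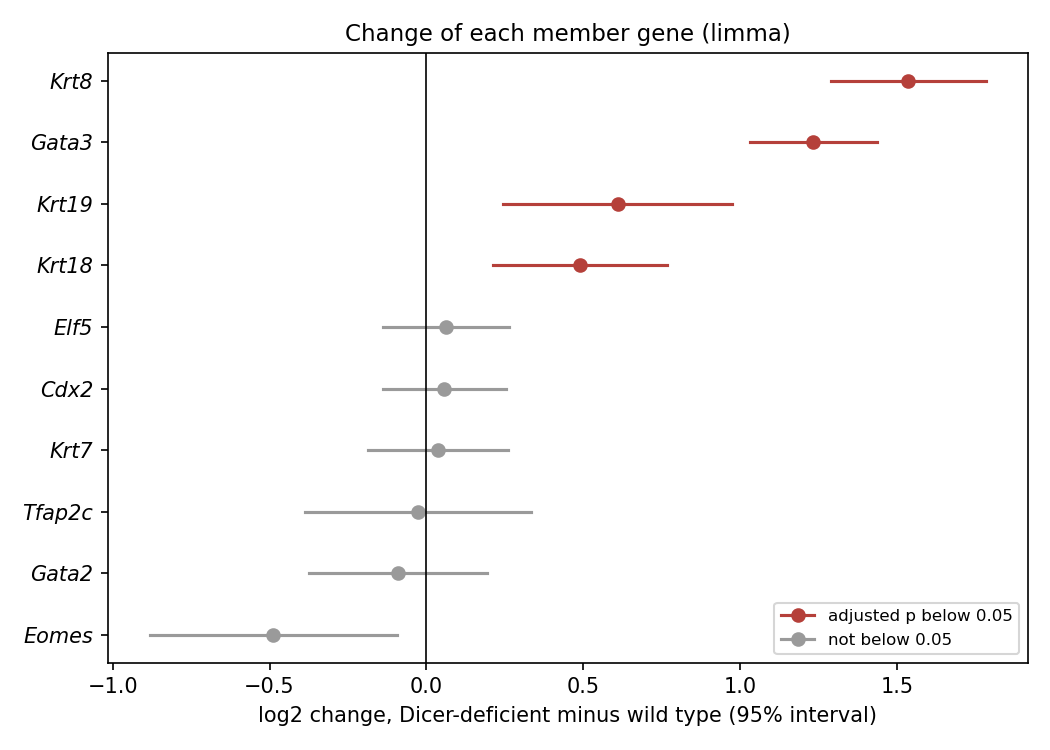
The log2 change of each of the 10 genes, Dicer-deficient minus wild type, with its 95% interval from limma on the horizontal axis, ordered by size. Krt8 (1.54), Gata3 (1.23), Krt19 (0.61) and Krt18 (0.49) passed an adjusted p of 0.05 (red), and the interval of Eomes lies below 0 although its adjusted p of 0.0977 did not pass (grey).

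Among the factors, Gata3 alone passed the test. Gata3 is a zinc-finger factor that can switch on trophoblast genes alongside Cdx2. Its log2 signal was 7.11 and 6.91 in the Dicer-deficient arrays, against 5.77, 5.79 and 5.77 in the wild-type arrays. The wild-type values were nearly identical, and both Dicer-deficient values lay more than 1 log2 unit above them. The mean was 7.01 ± 0.141 (SD, n = 2) in Dicer-deficient cells and 5.78 ± 0.0115 (SD, n = 3) in wild-type cells, 2.35-fold higher (log2 change 1.23, SE 0.0867, 95% interval 1.03 to 1.44, adjusted p = 0.000177). Leaving out each array in turn gave log2 changes from 1.13 to 1.33 and adjusted p-values from 0.00385 to 0.0169.

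Its paralog Gata2, which acts with Gata3 in trophoblast, did not pass the test. Gata2 had log2 signals of 5.77 and 5.51 in the Dicer-deficient arrays, against 5.68, 5.60 and 5.91 in the wild-type arrays. The groups overlapped, with a change of -0.09 (95% interval -0.37 to 0.19, adjusted p = 0.736) that was 0.04 without Dicer-deficient array 2 and 0.00 without wild-type array 3.

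Cdx2, the caudal-type homeobox factor that specifies trophectoderm, had a log2 signal of 5.31 in both Dicer-deficient arrays, against 5.15, 5.30 and 5.31 in the wild-type arrays. Every one of these values lay below 5.40, the median over all probe sets, and detection above background was not analysed here. The change was 0.06 (95% interval -0.14 to 0.25, adjusted p = 0.764). Elf5, an ETS factor that reinforces the trophoblast stem cell state, had log2 signals of 4.20 and 4.39 in the Dicer-deficient arrays, against 4.23, 4.26 and 4.21 in the wild-type arrays. Its signals lay near the lower quartile of the arrays, 4.14 to 4.18, and the change was 0.06 (95% interval -0.14 to 0.26, adjusted p = 0.746). At such signals a change in either transcript may not have been detectable.

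Eomes, a T-box factor of trophoblast stem cells that also acts in mesendoderm, was the one gene of the 10 whose Dicer-deficient values both lay below the wild-type range. Its log2 signal was 5.18 and 5.55 in the Dicer-deficient arrays, against 5.92, 6.08 and 5.56 in the wild-type arrays. Dicer-deficient array 2 and wild-type array 3 differed by only 0.01. The change of -0.49 (SE 0.169, 95% interval -0.88 to -0.09) did not pass the test (adjusted p = 0.0977). It passed without wild-type array 3 (log2 change -0.64, adjusted p = 0.0472), and over the other leave-outs the change ran from -0.67 to -0.30.

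Tfap2c, the AP-2 gamma factor of trophectoderm and germ cells, did not pass the test. Its log2 signal was 8.33 and 7.83 in the Dicer-deficient arrays, against 8.01, 8.03 and 8.28 in the wild-type arrays. The Dicer-deficient arrays lay on either side of the wild-type range, with a change of -0.03 (95% interval -0.39 to 0.34, adjusted p = 0.946). That change was 0.22 without Dicer-deficient array 2 and -0.28 without Dicer-deficient array 1.

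The promoters of Krt8, Krt18 and Gata3 are shown because these genes rose, Krt8 and Krt18 as immediate neighbours on chromosome 15. Each runs 5′ to 3′ on the gene's own strand, from 250 bases before to 50 after a RefSeq start site in GRCm38.p6. Capitals mark letters of motifs searched on both strands. These were TGANTCA for the AP-1 factors, GCCNNNGGC for the AP-2 factors, GGAATG for the TEAD factors, AGATAA or else TGATAA for the zinc-finger family of Gata3, TATAAA for the core promoter box of that name, and GGGCGG for the Sp1 factor.
Krt8, chr15:102004293-102004592, minus strand: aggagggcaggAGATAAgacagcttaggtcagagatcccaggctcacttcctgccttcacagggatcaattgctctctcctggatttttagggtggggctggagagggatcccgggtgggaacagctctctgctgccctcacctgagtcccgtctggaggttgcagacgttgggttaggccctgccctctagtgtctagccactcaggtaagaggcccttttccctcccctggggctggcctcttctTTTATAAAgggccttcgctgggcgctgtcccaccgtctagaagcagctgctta
Krt18, chr15:102027966-102028265, plus strand: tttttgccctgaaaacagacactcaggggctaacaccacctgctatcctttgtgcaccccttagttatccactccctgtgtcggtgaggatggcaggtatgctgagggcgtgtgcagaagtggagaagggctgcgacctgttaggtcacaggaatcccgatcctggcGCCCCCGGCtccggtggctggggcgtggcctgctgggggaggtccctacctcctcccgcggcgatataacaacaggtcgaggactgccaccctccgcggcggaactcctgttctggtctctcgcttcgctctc
Gata3, chr2:9878551-9878850, minus strand: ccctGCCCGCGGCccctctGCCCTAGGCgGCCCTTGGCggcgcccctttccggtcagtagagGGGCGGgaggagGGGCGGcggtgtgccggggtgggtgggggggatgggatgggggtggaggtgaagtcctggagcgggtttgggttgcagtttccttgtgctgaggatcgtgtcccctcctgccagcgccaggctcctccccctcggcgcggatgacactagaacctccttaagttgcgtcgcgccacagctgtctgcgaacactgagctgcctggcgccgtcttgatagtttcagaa

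The Krt8 window held 1 match for the Gata3 family, AGATAA, which 11.2% of 32851 promoter windows in the same table also held. The second GATA-factor spelling was in 9.05% of windows. The Krt8 window also held TATAAA, found in 13.6% of windows, starting 1 base before the annotated start site and overlapping a match on the opposite strand. The Krt18 window held 1 AP-2 match, and the Gata3 window held 3 AP-2 matches and 2 Sp1 matches, with Sp1 letters present in 35.7% of windows. AP-2 matches occurred in 16.6% of all windows, and also in the windows of Krt7, with 2, of Cdx2, with 1, and of the downstream Gata2 start site, with 1, none of which rose. The AP-1 letters, present in 7.81% of windows, were in none of the members' windows, and the TEAD letters, in 14.7%, were in those of Elf5 and Gata2 only. Windows were found for 8 of the 10 genes, and those of Krt19 and Tfap2c were not analysed here. A match is a run of letters and not a shown binding site.

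Other keratins were examined to see how far the changes reached along the gene clusters. Of 48 further keratin genes measured, 2 rose and 0 fell in limma, against 8.48% and 8.6% over all genes, and their median log2 change was 0.05. At an unadjusted p below 0.05, 5 were higher and 0 lower, and the share over all genes was not analysed here. Krt17, a type I keratin of basal and regenerating epithelia, had log2 signals of 7.73 and 7.75 in the Dicer-deficient arrays, against 6.04, 6.22 and 5.94 in the wild-type arrays. Its change of 1.67 (SE 0.0988, adjusted p = 0.000108) was of the size of that of Krt8 and passed the test with each array left out. Krt14, a type I keratin of basal cells, had 5.30 and 5.32 in the Dicer-deficient arrays, against 4.91, 4.89 and 5.09 in the wild-type arrays (log2 change 0.35, adjusted p = 0.0356). The Krt14 call was lost without Dicer-deficient array 1 or 2 or wild-type array 1 or 2 (adjusted p from 0.111 to 0.2), which left 1 of 48 called. For 38 of the 48 every signal lay below 5.40.

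On chromosome 15, where 25 keratin genes were measured, the adjacent Krt8 and Krt18 rose, at the end of the cluster. Krt78, next to Krt8 on its other side, had a change of 0.09 (adjusted p = 0.696), and Eif4b, a translation initiation factor next to Krt18, had -0.07 (adjusted p = 0.744). Farther out, Spryd3, the third gene past Krt18, rose by 0.47 (adjusted p = 0.0238), a call lost with either Dicer-deficient array or wild-type array 1 or 3 left out (0.0804 to 0.228). Krt7 lies near the opposite end of that cluster. On chromosome 11, with 27 keratin genes, Krt19, Krt14 and Krt17 rose, while Krt9 between Krt19 and Krt14 had -0.03 and Krt16 between Krt14 and Krt17 had 0.01. Krt42, next to Krt17, had 0.28 (adjusted p = 0.123). Keratins of 1 type resemble each other in sequence, and how far the probe sets of Krt14, Krt16, Krt17 and Krt42 read each other's transcripts was not tested.

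**Figure D3:**
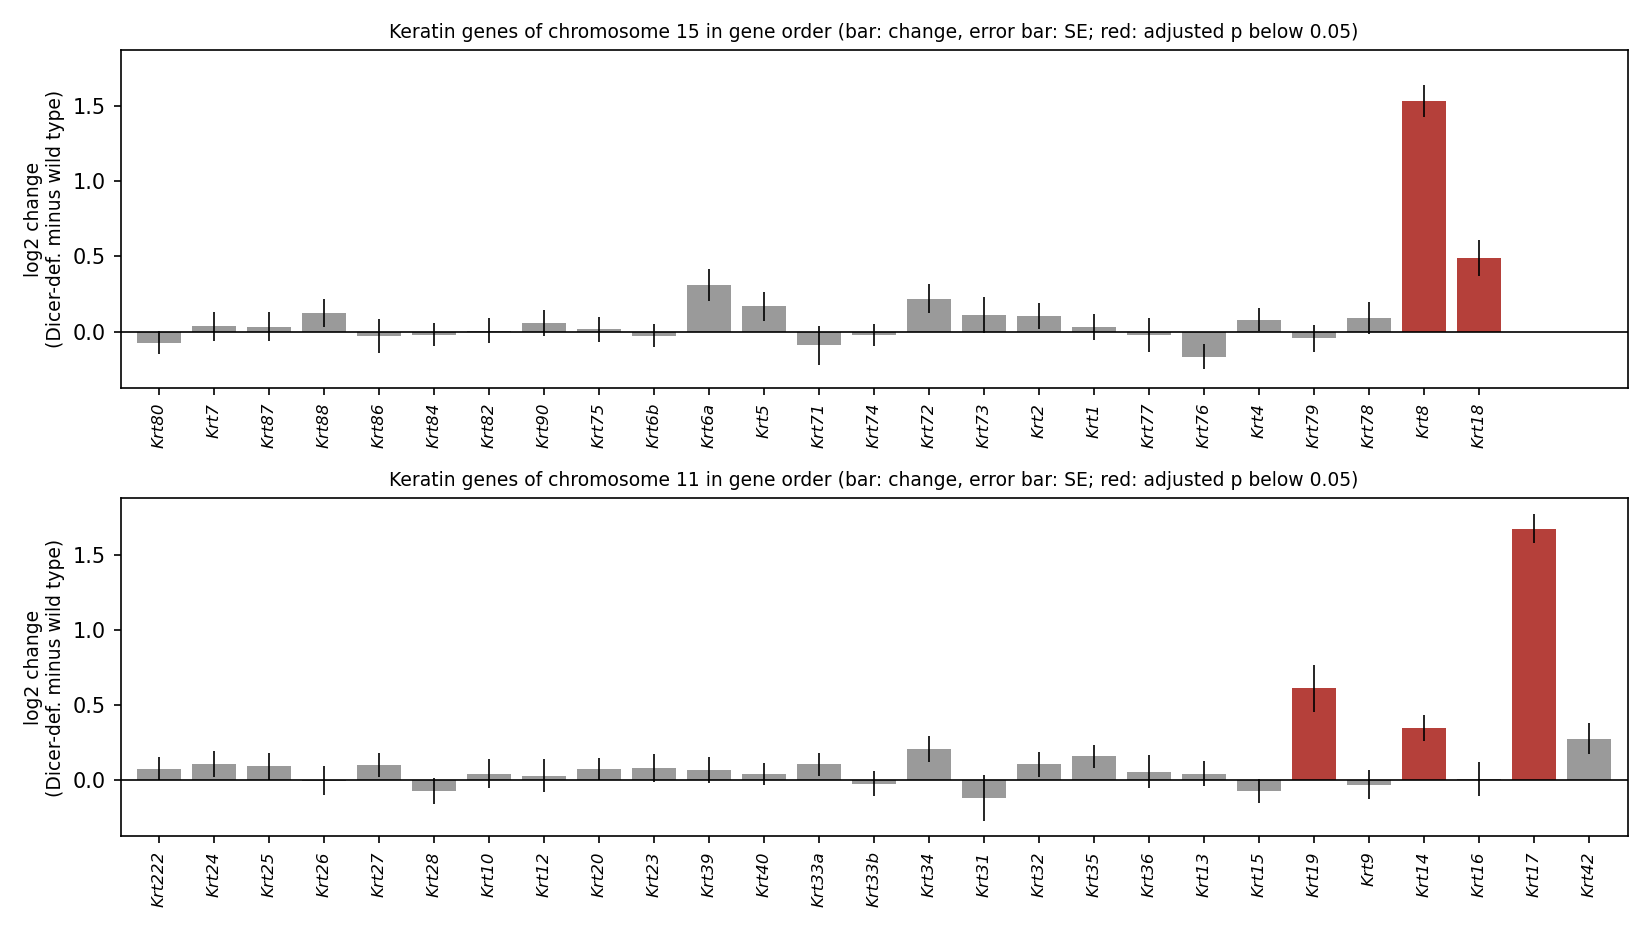
The log2 change (Dicer-deficient minus wild type, bars, with SE as error bars) of each measured keratin gene in gene order, not to distance, for the chromosome 15 cluster (top) and the chromosome 11 cluster (bottom). Red bars passed an adjusted p of 0.05: Krt8 and Krt18 at one end of the chromosome 15 cluster, and Krt19, Krt14 and Krt17 near one end of the chromosome 11 cluster.

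Among 15 other intermediate filament genes, 3 rose and 2 fell, 20% and 13.3% of them, beside 8.48% and 8.6% of all genes. The median change was -0.05, and it turned to 0.04 without dim genes and to 0.01 with array weights. Vim, the vimentin of mesenchymal and many cultured cells, had log2 signals of 11.88 and 12.20 in the Dicer-deficient arrays, against 11.24, 11.09 and 11.30 in the wild-type arrays (log2 change 0.83, adjusted p = 0.00287, and 0.0564 with Dicer-deficient array 2 left out). The neuronal Nefl and Ina had changes of 1.22 and 0.72 (adjusted p = 0.0281 and 0.0421), each lost under 4 of the 5 leave-outs. The neuronal Prph and Nefm fell, and neither was called without wild-type array 2. The count of 5 called was 2 when Dicer-deficient array 1, Dicer-deficient array 2 or wild-type array 1 was left out, and 1 when wild-type array 2 was.

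The 28 measured genes of a further list of trophectoderm specification and trophoblast stem cells had 8 higher and 2 lower, with a median change of 0.15. That is 28.6% higher and 7.14% lower, beside 8.48% and 8.6% of all genes. Msx2, among those higher, is also on the mesoderm list below. Aqp3, a water and glycerol channel, had log2 signals of 10.91 and 10.00 in the Dicer-deficient arrays, against 8.70, 8.57 and 8.80 in the wild-type arrays (log2 change 1.77, SE 0.232, adjusted p = 0.00221). Rhox9, a reproductive homeobox gene, changed by 1.28 (adjusted p = 0.00248, and 0.0732 with Dicer-deficient array 1 left out). Id2, an inhibitor of helix-loop-helix factors, changed by 1.19 (adjusted p = 0.0024, and 0.0862 and 0.0823 with Dicer-deficient arrays 1 and 2 left out in turn). The members that fell were Esrrb, an orphan nuclear receptor of both ES and trophoblast stem cells, by 0.72, and Cdh3, P-cadherin, by 0.60. Esrrb was not called with Dicer-deficient array 2 or wild-type array 2 left out (adjusted p from 0.0535 to 0.0914), nor Cdh3 with either Dicer-deficient array left out (0.0549 to 0.0599). Of the factors upstream of Cdx2 and Gata3, Tead4 had a change of 0.52 (adjusted p = 0.0519) and Yap1 of 0.06 (adjusted p = 0.758). Wwtr1, of the same list, had a change of 0.33 (adjusted p = 0.0863). The counts were 2 higher and 1 lower with Dicer-deficient array 1 left out, and 2 and 0 with Dicer-deficient array 2 left out.

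Markers of later trophoblast gave other counts. Of 23 measured, 1 rose and 3 fell, with a median change of -0.06, and 10 of the 23 lay below 5.40 on every array. That is 4.35% higher and 13% lower, beside 8.48% and 8.6% of all genes. Slc16a1, a lactate transporter, had log2 signals of 8.97 and 9.15 in the Dicer-deficient arrays, against 9.90, 9.84 and 9.92 in the wild-type arrays (log2 change -0.83, adjusted p = 0.00081). Plac8 and Tfeb also fell, by 0.73 and 0.54. Plac8 was dim, with 3.63 and 3.70 in the Dicer-deficient arrays, against 4.37, 4.33 and 4.49 in the wild-type arrays. The lower quartile of the arrays was 4.14 to 4.18. Peg10, an imprinted gene of retrotransposon origin, was the member that rose, by 0.63, and was no longer called when either Dicer-deficient array or wild-type array 1 or 2 was left out (adjusted p from 0.0576 to 0.264). The basic helix-loop-helix factors Hand1 and Ascl2 had changes of -0.05 and -0.48 (adjusted p = 0.894 and 0.0523). The list had 0 higher and 2 lower when Dicer-deficient array 1 was left out.

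Genes of epithelial adhesion and of the junctions that hold keratin filaments had 12 higher and 3 lower of 31 measured, with a median change of 0.22. That is 38.7% higher and 9.68% lower, beside 8.48% and 8.6% of all genes. Dsg2, a desmosomal cadherin, had log2 signals of 9.03 and 8.85 in the Dicer-deficient arrays, against 6.73, 6.91 and 6.48 in the wild-type arrays (log2 change 2.23, SE 0.132, adjusted p = 0.000108). The epithelial transcription factor Grhl2 changed by 1.37 (adjusted p = 0.000184), and the splicing regulator Esrp1 by 1.27 (adjusted p = 0.00196, and 0.06 and 0.0801 with Dicer-deficient arrays 1 and 2 left out in turn). Dsg2 and Grhl2 passed the test with each array left out.

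The epithelial adhesion genes Cdh1, E-cadherin, and Epcam rose by 0.48 and 0.63 (adjusted p = 0.00984 and 0.00288). The claudins Cldn7, Cldn4 and Cldn3 rose by 0.79, 0.75 and 0.57 (limma adjusted p = 0.00854, 0.00214 and 0.0328). Whether these claudin calls held with each array left out was not followed gene by gene. The linkers between desmosomes and keratin were mixed. Jup, plakoglobin, rose by 0.34 (adjusted p = 0.037), Dsp, desmoplakin, had 0.45 (adjusted p = 0.0865), and Pkp2, plakophilin, had 6.58 in both Dicer-deficient arrays, against 7.54, 7.45 and 7.75 in the wild-type arrays (log2 change -1.0, adjusted p = 0.000751). Besides Pkp2, the protease inhibitor Spint1 and the claudin Cldn6 fell, by 0.57 and 0.52 on the log2 scale, each losing its call without either Dicer-deficient array or wild-type array 1 or 2. Cdh1 missed the threshold when Dicer-deficient array 1 (adjusted p = 0.1) or wild-type array 2 (0.0509) was left out, Epcam without either Dicer-deficient array (0.0526 and 0.0645), and Jup under 4 leave-outs (0.0626 to 0.21). The list had 3 higher and 1 lower when Dicer-deficient array 1 was left out, and 7 and 1 when Dicer-deficient array 2 was. It had 8 and 1 when wild-type array 1 was left out, and 6 and 1 when wild-type array 2 was.

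**Figure D4:**
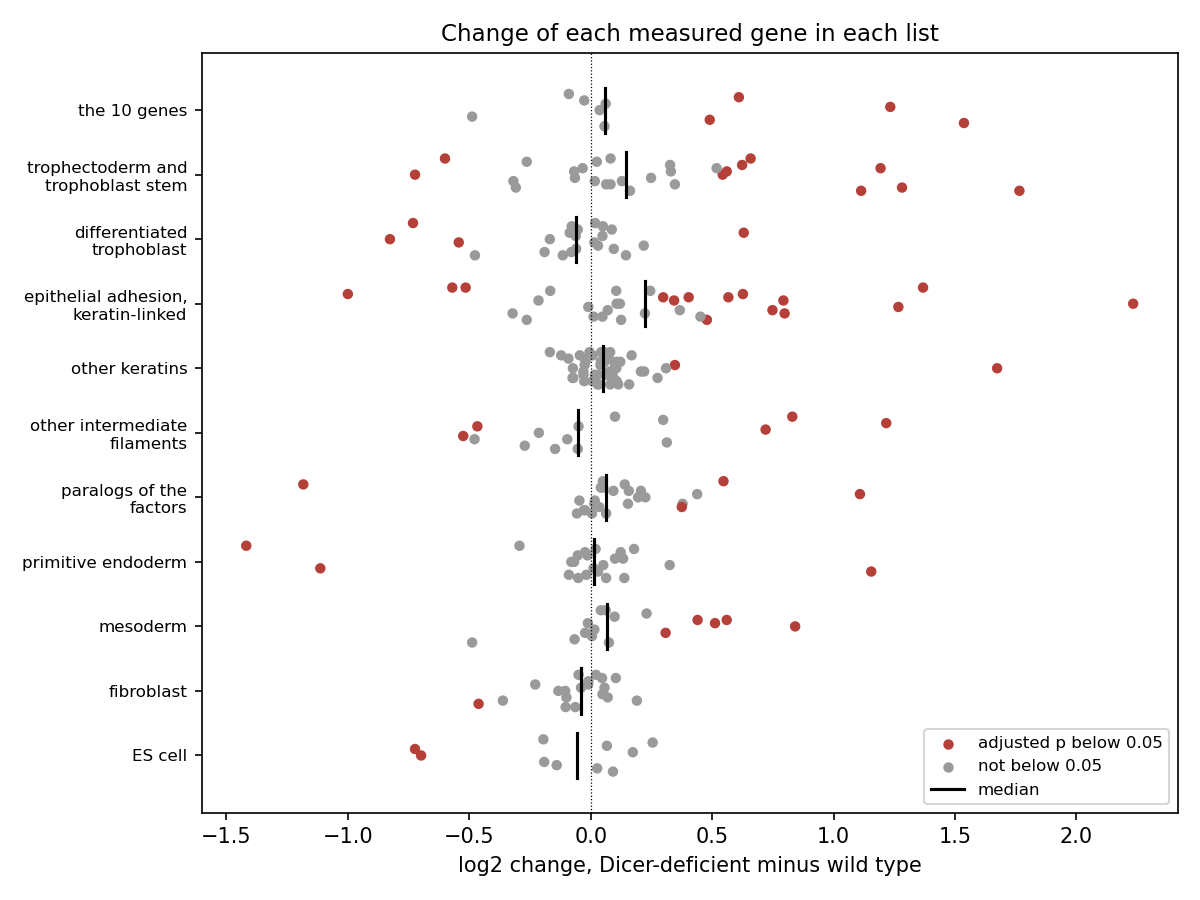
The log2 change, Dicer-deficient minus wild type (horizontal axis), of each measured gene in the 10 genes and in each further list (rows), with red points for an adjusted p below 0.05, grey points otherwise and a black bar at the list's median. Medians run from -0.06 (differentiated trophoblast, ES cell) to 0.22 (epithelial adhesion), and single genes stand far from the median in most rows.

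The paralogs of the 6 factors had 3 higher and 1 lower of 25 measured, with a median change of 0.06. These are shares of 12% and 4%, beside 8.48% and 8.6% of all genes. None of the other GATA, caudal or AP-2 family members was called by limma. Tbx20, a T-box factor of the heart, had log2 signals of 5.83 and 5.84 in the Dicer-deficient arrays, against 4.79, 4.80 and 4.59 in the wild-type arrays (log2 change 1.11, adjusted p = 0.000322). Tbx3, a T-box factor of naive ES cells, changed by -1.18 (adjusted p = 0.00626), a call lost without Dicer-deficient array 1 or 2 or wild-type array 2 (adjusted p from 0.0506 to 0.144). Elf1 and Elf3, ETS factors related to Elf5, rose by 0.55 and 0.38, and Elf1 was not called in 4 of 5 leave-outs, all but that of Dicer-deficient array 1 (adjusted p from 0.059 to 0.116). The count of 4 called was 2 when Dicer-deficient array 1 or wild-type array 1 was left out, and 1 when Dicer-deficient array 2 or wild-type array 2 was.

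Markers of other lineages that such cultures could hold are given beside these results, and their part in them was not tested. Shares of all genes at an unadjusted p below 0.05 were not analysed here. At the adjusted threshold 8.48% of all genes rose and 8.6% fell. The shares higher and lower were 4.35% and 8.7% for the primitive endoderm list, and 31.2% and 0% for the mesoderm list. For the fibroblast list they were 0% and 5.26%, and for the ES cell list 0% and 20%. Of 23 primitive endoderm markers, 1 rose and 2 fell, 1 in all without either Dicer-deficient array, and the list's mean log2 signal was 6.25 and 6.28 in the Dicer-deficient arrays, against 6.26, 6.30 and 6.35 in the wild-type arrays. The laminin genes Lamb1 and Lama1 fell by 1.42 and 1.11, and Lrp2, the endocytic receptor megalin, rose by 1.16 (adjusted p = 0.000296, 0.00379 and 0.00185), and Lama1 and Lrp2 lost their calls with either Dicer-deficient array left out. The defining primitive endoderm factors Gata4, Gata6 and Sox17 had changes of 0.05, 0.06 and -0.09. Of the 23 markers, 9 lay below the median over all probe sets, 5.404, on every array, Gata6 and Sox17 among them. At such signals a change may not have been detectable. Of 16 mesoderm markers, 5 rose and 0 fell in limma, with mean signals of 5.72 and 5.76 in the Dicer-deficient arrays, against 5.52, 5.60 and 5.61 in the wild-type arrays. At an unadjusted p below 0.05, 6 were higher and 1 lower, the lower one being Eomes, which this list also holds. Those that rose were Kdr, Msx2, Gsc, Evx1 and Snai1, and the count fell to between 0 and 2 without either Dicer-deficient array or wild-type array 1 or 2. Of 19 fibroblast markers, 0 rose and 1 fell in limma, the fibronectin gene Fn1 (unadjusted, 0 and 3), and that call was lost in every leave-out but that of Dicer-deficient array 1. Their mean signals were 5.82 and 5.78 in the Dicer-deficient arrays, against 5.78, 5.86 and 5.93 in the wild-type arrays. Of 10 ES cell markers, 0 rose and 2 fell in limma, Esrrb, also on the trophectoderm list, and Tdgf1 (unadjusted, 0 and 2). Tdgf1 alone was called when Dicer-deficient array 2 or wild-type array 2 was left out. The list had mean signals of 10.65 and 10.47 in the Dicer-deficient arrays, against 10.77, 10.72 and 10.59 in the wild-type arrays.

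The genes whose values over the 5 arrays lay closest to those of Krt8, each gene set to its own wild-type mean, were Pon2, Ifngr2, Atxn1, Fetub and Arhgap42. Pon2 encodes a paraoxonase, Ifngr2 a chain of the interferon gamma receptor, Atxn1 ataxin and Fetub a fetuin. The root mean square difference was 0.05 log2 units for Pon2 and from 0.10 to 0.11 for the others. Pon2 had log2 signals of 6.60 and 6.26 in the Dicer-deficient arrays, against 4.77, 4.98 and 4.89 in the wild-type arrays, so that its arrays followed the order of those of Krt8 in each group. With 5 arrays this likeness describes these samples only.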

How the data were processed

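RNA from 2 Dicer-deficient and 3 wild-type ES cell cultures was hybridised to Affymetrix whole-transcript arrays as biotin-labelled cRNA, per the labels' protocols. The authors deposited 1 table of values for 35556 probe sets, read here as normalized log2 signals from their range and near-equal array medians. The log base, background correction, summarisation and normalization are not given in the sources used here. Another base would rescale each change but no p-value. Arrays were grouped by title, and 0 value columns lacked a sample.

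The platform annotation named the probe sets: 21789 had 1 symbol, 1621 several and 12146 none. Of 19938 genes so named, 19856 were found by gene identifier in a RefSeq table of GRCm38.p6, which gave gene order. Per gene the probe set with the highest mean was used.

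The test was limma (lmFit, eBayes), on Dicer-deficient minus wild-type arrays without covariates, Benjamini-Hochberg adjusted over all 19938 genes at 0.05, with 3 residual and 4.54 prior degrees of freedom. It was tested on simulated data. An exact permutation of 3 against 2 arrays cannot go below p = 0.1. "Rose" and "fell" name called genes, and amounts are on the log2 scale unless called a fold. SEs and intervals are limma's.

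The members, lists and tests were chosen with earlier results of these data known, including the rises of Krt8 and Gata3. Besides the members, up to 3 called genes of each list with the largest changes and groups that do not overlap were named, with Dicer1, Pou5f1, Nanog, Sox2 and the 5 genes most like Krt8. Other genes named were chosen after their values were seen. Alternatives were quantile normalization applied again, centring of arrays on their medians, removal of dim genes (mean below 5.40), limma's trend, robust and array-weight options, a block on the replicate number, each array left out, averaging over probe sets of a gene and a 2-fold minimum. Promoters came from RefSeq. Tools were R 4.3.3, limma 3.58.1, Python 3.11.15, pandas 2.3.3 and matplotlib 3.10.9.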

Additional observations from a re-analysis of the deposited data

How the results depend on the processing

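The count of 4 of the 10 genes called was unchanged under a repeated quantile normalization, median centring, an intensity trend, robust moderation and averaging over probe sets. It was 5 without dim genes and with array weights, 3 with a block on the replicate number and 2 with a 2-fold minimum. Leaving out 1 array at a time gave 2 to 5, with 5 where Eomes joined without wild-type array 3. Over all genes the 3404 calls became 894 with the replicate number as a block, and 972 to 2953 over the leave-outs, where fewer arrays estimate the spread. Krt18 had a log2 change of 0.58 with the block (adjusted p = 0.0839), past the threshold no longer, and from 0.37 to 0.61 over the leave-outs; Krt19 had 0.515 to 0.78 over them. Eomes passed without dim genes (-0.49, adjusted p = 0.0452) and with array weights (-0.61, adjusted p = 0.0223), and ran from -0.67 to -0.30 over the leave-outs. The alternatives were followed gene by gene for the 10 genes and for only a part of the other genes named. Among those followed, directions turned only for changes near 0 that were not called. Krt7 turned to -0.015 without wild-type array 2 (range to 0.11). Without Dicer-deficient array 2, Gata2 turned to 0.04 (range from -0.22), Elf5 to -0.033 (range to 0.16) and Nanog to 0.02 (range from -0.41). Tfap2c turned to 0.021 with array weights and 0.06 with the block. It was 0.22 without Dicer-deficient array 2 and 0.06 without wild-type array 3 (range from -0.28). The cause of these shifts was not tested. What the replicate numbers stand for is not given by the labels. Deviations of same-numbered arrays correlated at 0.05 for number 1 and 0.01 for number 2 across genes. With so few arrays these values cannot decide whether same-numbered cultures were paired, and the block leaves wild-type array 3 unpaired. With the block, the trophectoderm list had 3 called and the epithelial list 6, against 10 and 15. Each member had 1 probe set, so the alternative of further probe sets gave no value. The number of arrays limits precision, and signal over background was not analysed here.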
